A study of Mus musculus with 88 samples.

Results

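The immediate early genes described here were 10 mouse genes: Egr1, Egr2 and Egr3 of the EGR family, Fos, Fosb and Fosl1 of the FOS family, Jun and Junb of the JUN family, and the immediate early response genes Ier2 and Ier3. They were chosen by gene name, and each name held 1 row of the expression table, which listed 21942 loci. All 10 members were therefore found, and no other locus of the table overlapped any of theirs. On the mm10 build, as the table gives them, Egr1 lies on chromosome 18 (34859822 to 34864984), Egr2 on 10 (67535474 to 67542188), Egr3 on 14 (70077444 to 70080157), Fos on 12 (85473889 to 85477273) and Fosb on 7 (19302695 to 19310051). Fosl1 lies on 19 (5447702 to 5455945), Jun on 4 (95049033 to 95052222), Junb on 8 (84976908 to 84978748), Ier2 on 8 (84661330 to 84662852) and Ier3 on 17 (35821683 to 35822923).

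Immediate early genes are transcribed within minutes of a growth factor or serum signal, without new protein synthesis. MEK activates ERK, which phosphorylates ternary complex factors such as ELK1; these sit with serum response factor (SRF) on serum response elements, whose core is the CArG box, beside cyclic AMP response elements that CREB and ATF proteins bind. FOS and JUN proteins pair to form the transcription factor AP-1, and EGR proteins are zinc finger factors. In mouse embryonic stem cells (ESCs), serum with the cytokine LIF leaves the MEK-ERK pathway active, whereas the medium 2i blocks MEK and GSK3. Immediate early genes also respond to the handling of cells before lysis.

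The study derived ESC lines from F1 embryos of 2 crosses and measured RNA in 26 libraries by stranded mRNA sequencing. The B6 cross (129X1/SvJ and C57BL6) had 4 lines in each of 4 media at passage 3, 2 XX and 2 XY: a2i (alternative 2i, which inhibits Src kinase and not MEK), t2i (titrated 2i, with less MEK inhibitor), 2i and serum. The other cross, called MSM (129X1/SvJ with MSM/Ms), had 1 library of fibroblasts derived through 2i line 15 (2i MEF), 2 of mouse embryonic fibroblasts (MEF), 1 of line 15 moved from 2i to serum for 14 further passages (2i-S), 4 lines in 2i (15 and 2, both XX, with 20 and 23, both XY) and 2 in serum (S, XX line 8 and XY line 12). Line 15 thus supplied 3 libraries, and MEFs carried no sex here, since their titles and descriptions disagree on it. No animal carried a named mutation or transgene in the labels. The labels name a line or culture for each library but do not say whether lines shared a litter or a day, so p-values measure the spread between these libraries. The 62 bisulfite samples were not analysed here.

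Values were RPKM, read counts scaled to the length of the transcript and to the mapped reads of the library, which allow levels of different genes to be set side by side. The table gives no counts, so sequencing depth is unknown and no counting interval was made. Summed RPKM ran from 624274 to 934309 per library, and 11234 to 12558 loci reached 1 RPKM. The 10 pluripotency markers were at 1 RPKM or more in every ESC library, while none reached 1 RPKM in a MEF or 2i MEF library. Fibroblast marker RNA stood apart in 1 group of ESC libraries. The summed RPKM of 24 fibroblast markers was 8.01 to 25.2 over the a2i, t2i and 2i libraries of the B6 cross, against 1263 to 1940 in B6 serum. In the MSM cross the same sum was 24817 in 2i MEF, 11920 to 13675 in MEF, 224 in 2i-S, 23.8 to 110 in 2i and 99.9 to 254 in S. The serum levels of the members in the B6 cross are therefore set beside their MEF levels.

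Sequence before the start sites was searched for some of these elements, as a description. Whether they bear on the members' levels was not tested. The stretches are from RefSeq (GRCm38.p6, the same assembly as the mm10 build of the submitters' processing notes), which held windows for 6 members, Egr2, Fos, Fosb, Jun, Junb and Ier3. Of each, the 250 bases before a start were searched on both strands for TGACG (the core of a cyclic AMP response element), TATAAA and the CArG box; these motifs do not overlap each other in the letters found. For Fos, Fosb and Junb the 150 bases before the start are printed 5′ to 3′ along the gene, with the motifs in capitals. For Egr2, which has several starts, 30 bases around a CArG box are printed with that box in capitals.
Fos, chr12:85473740-85473889, plus strand: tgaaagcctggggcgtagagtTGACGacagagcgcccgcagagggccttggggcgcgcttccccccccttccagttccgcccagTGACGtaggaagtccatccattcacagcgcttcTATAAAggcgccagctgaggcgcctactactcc
Fosb, chr7:19310046-19310195, minus strand: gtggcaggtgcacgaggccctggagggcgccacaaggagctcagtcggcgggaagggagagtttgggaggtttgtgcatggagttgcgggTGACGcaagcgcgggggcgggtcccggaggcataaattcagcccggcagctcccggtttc
Junb, chr8:84978749-84978898, minus strand: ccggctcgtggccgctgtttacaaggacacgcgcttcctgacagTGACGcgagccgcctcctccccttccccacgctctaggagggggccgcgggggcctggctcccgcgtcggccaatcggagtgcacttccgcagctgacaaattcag
Egr2, chr10:67537787-67537816, plus strand: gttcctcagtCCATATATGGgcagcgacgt

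Counted from the start, TGACG began at -129 and -66 and TATAAA at -33 in Fos. TGACG began at -60 in Fosb and at -106 in Junb. The printed CArG box of Egr2 began at -72 from the start whose window is used here, with a TGACG at -111 and another at -55. A different CArG box, not printed, began at -72 from an upstream start of Egr2 (window 67537316 to 67537615). No CArG box was found in the 250 bases searched of Fos, Fosb or Junb. Bases further from the start were not searched, so a CArG box there would have been missed. Of 32851 RefSeq windows searched in the same way, none of them on chromosome 18, 17.8% held TGACG, 12.4% TATAAA and 1.47% a CArG box. The windows of Jun and Ier3 held none of the 3 motifs.

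The first question was how far the members depend on the medium in the B6 cross. All 9 members that could be tested were lower in 2i, in t2i and in a2i than in serum. The largest differences were those of Fos, Egr1 and Fosb. Fosb did not exceed 0.229 RPKM in any of the 3 media or Egr1 0.0974 RPKM in t2i and 2i, while Ier2 kept the highest level in every serum-free medium and changed least. Between 2i and t2i no member was called. In a2i, Egr1 stood above both 2i and t2i without overlap. Fos was called higher in a2i than in both, but its ranges overlapped, and its mean exceeded that of 2i in XX lines only.

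Differences were tested with limma on log2(RPKM + 1) over the 13150 genes that reached 1 RPKM in 2 or more of the 16 B6 libraries, and called at a Benjamini-Hochberg adjusted p under 0.05. All differences given below are on this scale, which understates the change of low genes. Egr3 did not reach the filter. Egr2, Fosb and Fosl1 passed it only through serum, where they were high, so that their difference was set by the filter and the number of members lower than serum is given as a description. Across all genes, 30.7% were called lower in 2i than in serum, 28.5% in t2i and 25.0% in a2i, so 9 of 9 members stands beside a background of about this size. These splits depended on the scaling: 2215 genes were higher and 4042 lower in 2i, but 3877 higher and 2764 lower after quantile normalization, and 3710 higher and 2434 lower after the fibroblast share was subtracted. The median of all genes moved from -0.09 to 0.08 and 0.10 with these scalings, while the members' median moved from -3.52 to -3.41 and -3.35.

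Among the EGR genes, Egr1, a zinc finger activator that is a standard readout of ERK activity, had 0.290 and 1.10 RPKM in the XX lines and 1.94 and 2.28 RPKM in the XY lines of a2i. It had 0.0437 RPKM and a listed 0 in the XX lines and 0.0899 and 0.0690 RPKM in the XY lines of t2i, and 0.0249 and 0.0740 RPKM in XX and 0.0731 and 0.0974 RPKM in XY lines of 2i. Serum lines had 78.3 and 82.8 RPKM in XX and 33.4 and 34.7 RPKM in XY. No value in any serum-free medium came near the lowest serum value, and the a2i values lay above all of t2i and 2i. The difference from serum was -4.56 ± 0.14 in a2i (SE; adjusted p = 4.52e-11), -5.67 ± 0.14 in t2i (adjusted p = 5.24e-12) and -5.65 ± 0.14 in 2i (adjusted p = 5.1e-12).

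Egr2, a relative needed for hindbrain and Schwann cell development, was at most 0.0961 RPKM in a2i, 0.0259 RPKM in t2i and 0.455 RPKM in 2i, against 6.44 and 10.2 RPKM in XX and 3.55 and 2.90 RPKM in XY serum lines. Its differences from serum were -2.56 in a2i, -2.62 in t2i and -2.43 in 2i. Egr3, a further relative known from muscle spindle development, was listed at 0 in all 12 libraries of a2i, t2i and 2i, against 0.721 and 1.86 RPKM in XX and 0.678 and 0.556 RPKM in XY serum lines. Only serum XX line 46 exceeded 1 RPKM for Egr3, and no fold is given against groups at 0.

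Fos, the partner of JUN proteins in the classical AP-1 dimer, had 3.06 and 5.30 RPKM in XX and 1.60 and 1.49 RPKM in XY lines of a2i. It had 1.43 and 1.85 RPKM in XX and 0.551 and 0.927 RPKM in XY lines of t2i, and 0.589 and 0.811 RPKM in XX and 2.51 and 1.45 RPKM in XY lines of 2i. In serum it had 261 RPKM in both XX lines and 90.3 and 79.7 RPKM in the XY lines. Serum lay far above every other medium, and a2i, t2i and 2i overlapped. The mean in serum, 173 RPKM, was 60.4 times that in a2i, 146 times that in t2i and 129 times that in 2i. The differences were -5.39 ± 0.16, -6.14 ± 0.16 and -6.07 ± 0.16 (SE), with adjusted p = 3.73e-11 in a2i, 1e-11 in t2i and 1.01e-11 in 2i.

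Fosb, a FOS relative that also pairs with JUN proteins, did not exceed 0.144 RPKM in a2i, 0.229 RPKM in t2i or 0.207 RPKM in 2i, against 66.5 and 85.4 RPKM in XX and 31.8 and 25.1 RPKM in XY serum lines. Its differences from serum were -5.48 ± 0.12 in a2i, -5.40 ± 0.12 in t2i and -5.41 ± 0.12 in 2i (SE). Fosl1, which encodes FRA1, a FOS family protein that accumulates under sustained ERK signalling, had at most 0.371 RPKM in a2i, 0.339 RPKM in t2i and 0.413 RPKM in 2i, against 4.55 to 5.92 RPKM in serum. Its differences from serum were -2.28 in a2i, -2.36 in t2i and -2.26 in 2i.

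Jun, the AP-1 subunit that dimerises with FOS proteins, had 1.23 to 4.44 RPKM in a2i, 0.384 to 3.36 RPKM in t2i and 1.32 to 2.58 RPKM in 2i, against 37.5 and 52.8 RPKM in XX and 28.4 and 24.0 RPKM in XY serum lines. The differences from serum were -3.34 ± 0.17, -3.82 ± 0.17 and -3.61 ± 0.17 (SE) in a2i, t2i and 2i. Junb, a JUN relative that can counter JUN on some promoters, stayed detectable without serum, at 7.03 to 10.9 RPKM in a2i, 5.01 to 9.79 RPKM in t2i and 3.71 to 5.65 RPKM in 2i, against 49.3 to 108 RPKM in serum. Its differences from serum were -2.85 in a2i, -3.06 in t2i and -3.52 in 2i. For both genes the serum lines lay above all 12 lines of the other media.

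Ier2, a nuclear protein gene of the early serum response, was the least dependent on medium, at 56.1 to 80.1 RPKM in a2i, 60.3 to 77.3 RPKM in t2i and 45.6 to 82.6 RPKM in 2i, against 94.5 to 154 RPKM in serum. Its differences were -0.84 ± 0.12, -0.77 ± 0.12 and -0.95 ± 0.12 (SE), with adjusted p = 0.000146, 0.000241 and 3.58e-05. Ier3, a stress and growth factor response gene that acts on ERK signalling and cell death, ran from 8.08 to 33.9 RPKM in a2i, 5.35 to 11.5 RPKM in t2i and 5.02 to 9.10 RPKM in 2i, against 32.5 to 47.1 RPKM in serum. Line a18 of a2i, at 33.9 RPKM, lay within the serum range. The differences from serum were -1.32 ± 0.24 in a2i, -2.23 ± 0.24 in t2i and -2.17 ± 0.24 in 2i (SE).

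**Figure D1:**
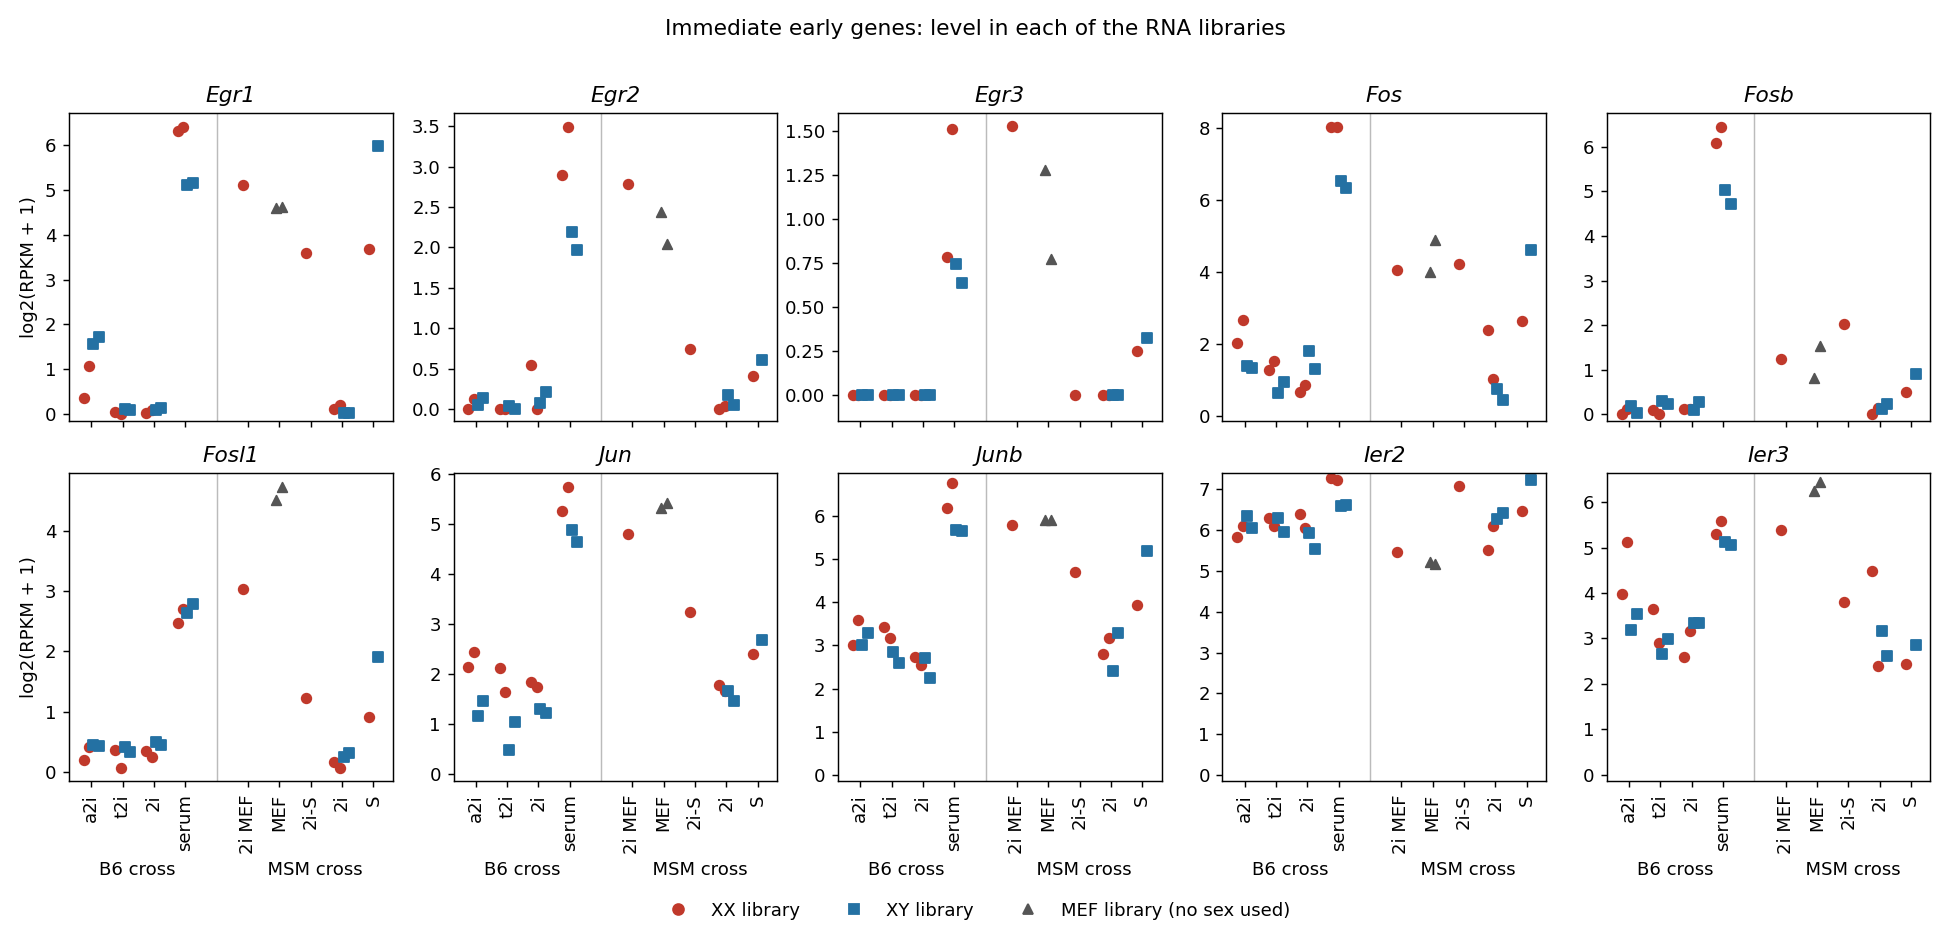
Level of each member as log2(RPKM + 1) in all 26 RNA libraries; circles are XX, squares XY and triangles MEF libraries, with the B6 cross left and the MSM cross right of the line, and each panel has its own vertical scale. Fos and Fosb are highest in the 4 B6 serum lines, Fosl1 and Ier3 in MEF, and Ier2 lowest in MEF and 2i MEF.

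Among the serum-free media, t2i minus 2i gave 0 calls among 9 members with limma, where 8.08% of all genes were called in either direction. At an unadjusted p under 0.05 there was 1, Junb, at 0.45 ± 0.17 (SE; adjusted p = 0.123). The 95% interval of the difference was -0.32 to 0.27 for Egr1 and -0.41 to 0.28 for Fos. All Egr1 values in both media were far under the pseudocount of 1 RPKM, which flattens changes there, so these intervals do not exclude a 2-fold change of Egr1.

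In a2i, 4 of 9 members were higher than in 2i, where 7.94% of all genes were called higher. Egr1 averaged 1.40 ± 0.89 RPKM in a2i and 0.0673 ± 0.0304 RPKM in 2i (SD, n = 4 each), a difference of 1.08 ± 0.14 (SE, adjusted p = 0.000325). Fos was higher by 0.69 ± 0.16 (adjusted p = 0.0119), Junb by 0.67 ± 0.17 (adjusted p = 0.0188) and Ier3 by 0.85 ± 0.24 (adjusted p = 0.0302). By mean, Fos was at 4.18 RPKM in a2i and 0.700 RPKM in 2i in XX lines, but at 1.54 and 1.98 RPKM in XY lines. For Ier3 these means were 24.3 and 6.45 RPKM in XX lines and 9.35 and 9.08 RPKM in XY lines. Egr1 was called without any one of the 8 libraries. Without line c6 of 2i it was the only call of the 4, Junb lost its call also without c4, a18 or a3, and Ier3 without c3, c2, a18 or a3, without the filter, or in a fit of both media alone.

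Against t2i, Egr1 was higher in a2i by 1.11 ± 0.14 (SE, adjusted p = 0.00632) and Fos by 0.75 ± 0.16 (adjusted p = 0.0441), where 0.707% of all genes were called higher. The call of Fos was lost without any one of t1, t2, t6, a18, a1 or a3, and neither gene was called in a fit of the 8 libraries of a2i and t2i alone. Ier3 differed by 0.91 ± 0.24 (adjusted p = 0.0857) and was not called.

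**Figure D2:**
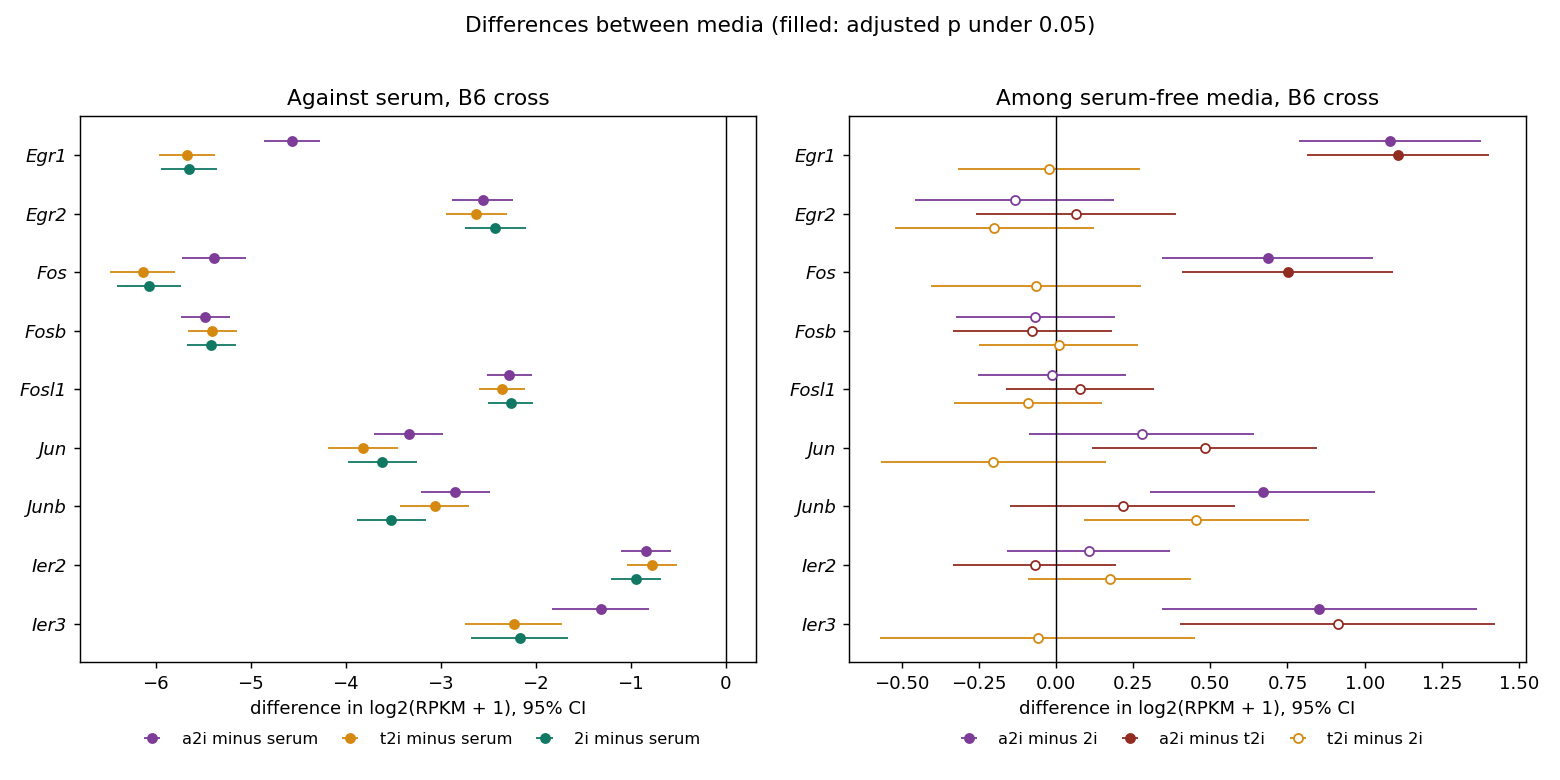
Differences in log2(RPKM + 1) with 95% intervals for the 9 tested members in the B6 cross, against serum (left) and among a2i, t2i and 2i (right); filled points have an adjusted p under 0.05. All points of the left panel lie below 0, from -6.14 for Fos in t2i to -0.77 for Ier2 in t2i, and in the right panel only a2i differences are filled.

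The fibroblast RNA of the B6 serum libraries was then weighed against the MEF level. For each library, the share was the median over the 24 fibroblast markers of the library's RPKM as a percentage of the mean MEF RPKM. It was 0.0242% to 0.0505% in a2i, 0.00668% to 0.0553% in t2i and 0.0118% to 0.0392% in 2i, against 8.55%, 13.7%, 11.2% and 14.3% in serum lines 17, 46, 10 and 16. With the 2i MEF library as the MEF level the median over the serum lines was 8.25%, against 12.4% with the MEF mean. The share was not the same for every marker: the lowest single marker stood at 2.97% to 6.89% of the MEF level over the 4 libraries and the highest at 21.5% to 43.1%. The labels do not say whether serum lines were grown on fibroblasts, and the state of any fibroblasts in those dishes was not measured.

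Fosb was near the floor of the table in MEFs, at 0.773 and 1.91 RPKM. The share times the MEF mean was 0.115 to 0.192 RPKM, which is 0.173% to 0.765% of the Fosb level of the same serum libraries. Fosb in serum lines was 38.9 times the MEF mean. For Fos, at 14.8 and 28.7 RPKM in MEFs, the product was 0.713% to 3.92% of the serum level, for Ier2 1.97% to 5.26% and for Egr1 2.56% to 9.68%. All 4 serum lines exceeded both MEF libraries for these 4 genes. The 2i MEF library, at 33.6 RPKM of Egr1, lay just above serum line 10 (33.4 RPKM) and under the other serum lines. With the share of the highest single marker in place of the median, the product was 0.435% to 2.27% of the serum level for Fosb, 1.80% to 11.6% for Fos, 4.96% to 15.6% for Ier2 and 6.44% to 28.7% for Egr1.

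The rest stood nearer to the MEF level. The product was 4.99% to 18.5% of the serum level for Egr2, 6.98% to 17.1% for Junb, 7.85% to 27.5% for Egr3, 9.19% to 24.0% for Jun and 17.8% to 35.4% for Ier3. Fosl1 was the extreme, with 21.8 and 25.3 RPKM in MEFs and a product of 44.3% to 58.1% of its serum level. At the highest single marker the product for Fosl1 was 112% to 183%, more than its whole serum level, and for Ier3 44.9% to 105%. After the share was subtracted all 9 tested members were still called lower in 2i, t2i and a2i than in serum. For Egr2, Fosb and Fosl1, which passed the filter only through serum, this is a description. Fewer cells that express a member and less of its RNA per cell cannot be told apart in these bulk libraries.

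**Figure D3:**
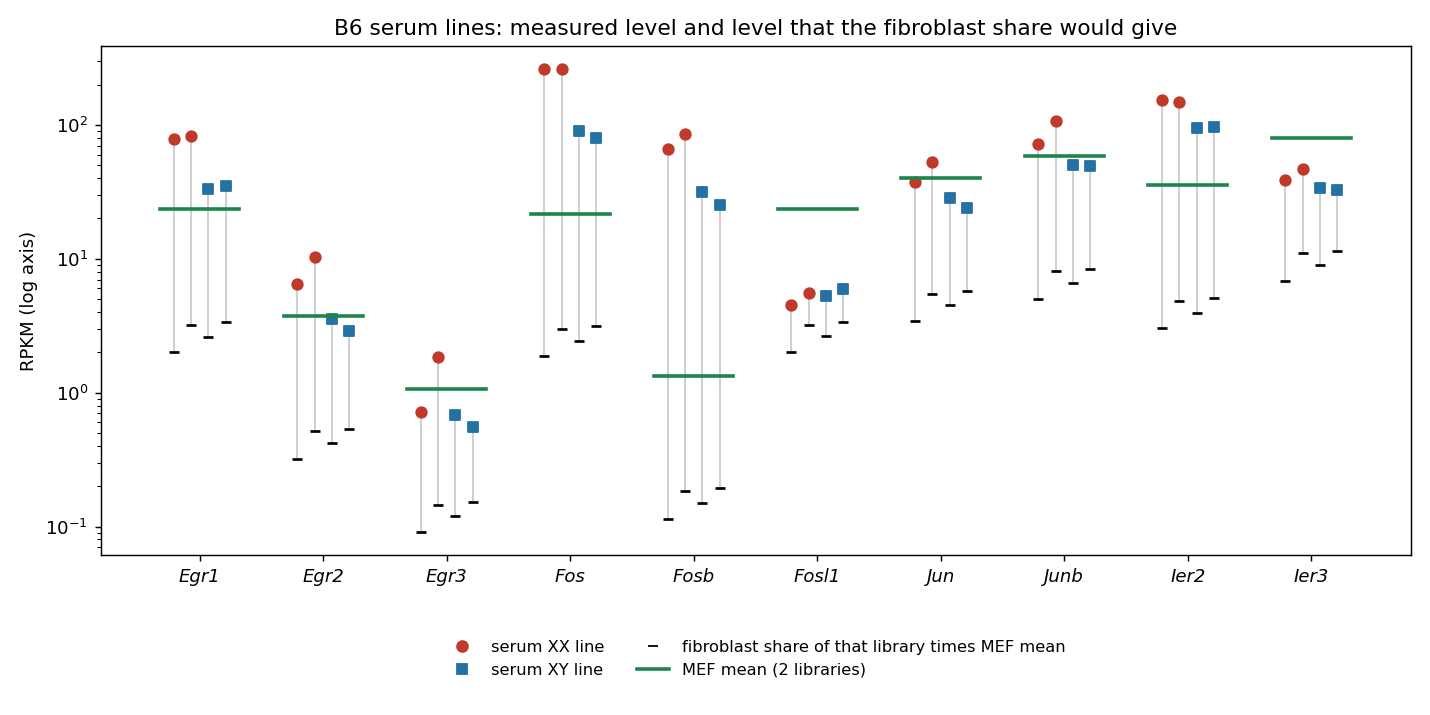
RPKM of each member in the 4 B6 serum lines (circles XX, squares XY), the fibroblast share of that library times the MEF mean (black dashes) and the MEF mean of 2 libraries (green bars), on a log axis. Fosb and Fos lie far above both the dash and the bar, while Fosl1 lies below the bar, and its dash stands at 44.3% to 58.1% of its level.

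Genes around the members were described by lists, with counts beside the all-gene median of -0.09 in 2i minus serum. Of 36 tested other immediate early genes, 30 were lower in 2i and 0 higher (median -1.21), led by Ptgs2 (-4.06), a prostaglandin synthase, and the matricellular genes Cyr61 (-3.37) and Ctgf (-3.37). Of 7 tested relatives of the members, 3 were lower: Fosl2 (-2.48), Ier5 (-1.52) and Jund (-1.31). Of 14 AP-1 and EGR targets, 12 were lower (median -2.18), among them Thbs1 (-7.95) and Cd44 (-4.76). Of 13 cytoskeletal SRF targets, 12 were lower (median -2.70), among them the smooth muscle genes Tagln (-7.83) and Myl9 (-6.44), while Acta2 was listed at 0 in all 2i lines.

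For several of these genes the fibroblast product was a large part of the serum level. The share times the MEF mean was 54.5% to 95.3% of the serum level for Thbs1, 56.9% to 107% for Cd44, 31.7% to 73.8% for Tagln and 63.8% to 84.1% for Fosl2. It was 43.4% to 91.3% for Ier5, 32.4% to 55.2% for Cyr61, 31.4% to 72.4% for Myl9, 53.3% to 127% for Acta2, 17.0% to 37.3% for Ptgs2, 14.4% to 31.8% for Ctgf and 3.51% to 12.3% for Jund. After subtraction, 26 of 36 other immediate early genes and 12 of 14 AP-1 and EGR targets were lower in 2i. Of 12 cytoskeletal SRF targets 8 were lower and 1 higher, and of 7 relatives 2 were lower and 3 higher. Across all 12893 genes of the subtracted fit, 2434 were lower and 3710 higher.

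Genes upstream of the serum response element moved less, with 15 of 29 lower and 1 higher in 2i (median -0.27). Srf itself differed by -1.04, Mapk3, which encodes ERK1, by -1.02 and Elk3, a ternary complex factor, by -0.92. The product was 11.1% to 20.5% of the serum level for Srf, 10.4% to 18.7% for Mapk3 and 41.9% to 67.4% for Elk3. After subtraction 6 of 29 genes of this list were lower and 2 higher, where 2434 of all 12893 genes were lower and 3710 higher. Stress and heat shock genes were mixed. Of 10 tested, 4 were higher and 2 lower in 2i (median 0.23), with Gadd45a at -1.57, Hspa1b at -0.68 and Hspe1 at 0.42. The product was 2.51% to 4.96% of the serum level for Gadd45a, 20.8% to 60.1% for Hspa1b and 5.10% to 7.98% for Hspe1. The summed RPKM of this list overlapped between media, at 6649 to 9741 in a2i, 7172 to 10054 in t2i and 8145 to 8883 in 2i, against 7587 to 9161 in serum.

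Summed RPKM of markers of other embryonic cell types was also higher in B6 serum, though MEFs express some of them. Of 4 tested primitive endoderm markers 3 were called lower in 2i than in serum, and of 5 tested trophectoderm markers 3, against 30.7% of all genes. Whether such cells were present was not tested. The sum of 6 primitive endoderm markers was 2.09 to 3.02 RPKM in a2i, 1.35 to 1.96 RPKM in t2i and 1.71 to 2.49 RPKM in 2i, against 15.1 to 77.9 RPKM in serum, and that of 7 trophectoderm markers 55.5 to 63.1, 41.6 to 51.3 and 42.3 to 49.9 RPKM, against 75.5 to 136 RPKM in serum. The endoderm sum was 72.1 to 94.1 RPKM in MEF, and the fibroblast share times the MEF mean was 19.8% to 114% of the serum level for Dab2 and 8.13% to 53.3% for Gata6, but 0.0493% to 0.493% for Gata4. No marker of either list was at 0 in all serum libraries, and their part in the members' levels was not tested.

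The sexes differed within serum. Fos, Fosb, Egr1, Egr2 and Ier2 were higher in the XX than in the XY serum lines, with no overlap for any of them. Fosb had 66.5 and 85.4 RPKM in XX against 31.8 and 25.1 RPKM in XY lines (difference 1.38 ± 0.17 SE, adjusted p = 0.000437), and Fos differed by 1.61 ± 0.22 (adjusted p = 0.0011). Egr1 differed by 1.22 ± 0.19 (adjusted p = 0.00247), Egr2 by 1.12 ± 0.21 (adjusted p = 0.0066) and Ier2 by 0.65 ± 0.17 (adjusted p = 0.0383), where 5.51% of all genes were called higher in XX. This comparison was added after the values were seen. Without serum XY line 16 the calls were 3 of 9, and with a pseudocount of 0.1 RPKM 2 of 9; Ier2 lost its call without any one serum line. The split of all calls also moved, with 724 higher and 234 lower against 742 and 452 after quantile normalization.

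Fosl1 did not share the difference in serum (-0.12, interval -0.46 to 0.21), and Jun (0.75, adjusted p = 0.0826) and Junb (0.81, adjusted p = 0.0611) were not called. The fibroblast share of the XX serum lines was 8.55% and 13.7% and that of the XY lines 11.2% and 14.3%, so it overlapped between the sexes, and after subtraction the XX minus XY values of Jun and Junb were called at 0.91 and 0.93. Of the other lists, 9 of 36 other immediate early genes were higher in XX serum lines and 0 lower (median 0.44 against -0.01 for all genes), while 0 of 13 cytoskeletal SRF targets were called.

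The direct test of whether the 2i minus serum difference depended on sex called 3 of 9 members lower in XX, where 5.02% of all genes were called lower. The XX minus XY value of this difference was -2.40 ± 0.31 for Fos (SE, adjusted p = 0.00111), -1.46 ± 0.24 for Fosb (adjusted p = 0.00304) and -1.27 ± 0.27 for Egr1 (adjusted p = 0.0139). For Fos the order of the sexes turned round: XX lines were at 0.589 and 0.811 RPKM and XY lines at 2.51 and 1.45 RPKM in 2i, the reverse of serum. Egr1 and Fosb did not exceed 0.0974 and 0.207 RPKM in 2i, far under the pseudocount of 1 RPKM. Their values here therefore largely repeat their XX minus XY differences within serum, 1.22 and 1.38, with the sign turned. Fosb also passed the filter only through serum. With a pseudocount of 0.1 RPKM, Egr1 and Fosb were no longer called in this test.

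For a2i the same kind of test, a2i minus 2i in XX minus XY lines, called Fos at 1.78 ± 0.31 (SE, adjusted p = 0.0106), where 3.31% of all genes were called higher; after quantile normalization 245 genes were higher and 200 lower, against 435 and 213. For t2i minus 2i there were 0 calls of 9 with limma (1.26% of all genes in either direction), and at an unadjusted p under 0.05 there was 1, Fos, at 1.40 ± 0.31 (adjusted p = 0.055). Fos was thus higher in XX than XY lines in a2i, where the difference was 0.99 ± 0.22 (adjusted p = 0.00603), and Jun (0.98) and Ier3 (1.19) were higher there too. Egr1 went the other way in a2i, at 0.290 and 1.10 RPKM in XX against 1.94 and 2.28 RPKM in XY lines (-0.92 ± 0.19, adjusted p = 0.00415). Within a2i, a comparison added after the values were seen, 28.3% of all genes were called, with 2214 higher and 1512 lower, and 1668 higher and 1719 lower after quantile normalization; without line a18 only the Egr1 call was left of the 4.

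Averaged over the 4 media, 6 of 9 members were higher in XX than in XY lines, where 21.4% of all genes were called higher. Jun was the largest, at 0.85 ± 0.12 (SE, adjusted p = 0.000105), and it was higher in XX by mean in each medium; Fos followed at 0.60 ± 0.11 (adjusted p = 0.000836) and Junb at 0.42 ± 0.12 (adjusted p = 0.0127). The calls of Egr2 (0.30), Fosb (0.26) and Ier2 (0.25) were each lost without several single libraries, and Fosb turned to -0.13 (adjusted p = 0.668) with a pseudocount of 0.1 RPKM. XX means were under XY means for Fosb in a2i, t2i and 2i and for Egr2 in a2i and t2i. The same held for Fos in 2i and for Ier2 in a2i. Egr2 and Fosb passed the filter only through serum. Without any one of t1, a18, t6, a3, serum 16 or serum 46, 3 of 9 members were called.

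In the MSM cross the question was whether the same medium difference held in lines with little fibroblast RNA. Of the 10 members, 6 were lower in 2i than in S, where 8.67% of all genes were called lower: Egr1, Fos, Junb, Fosl1, Jun and Ier2. Egr1 had 0.0859, 0.156, 0.0250 and 0.0268 RPKM in 2i lines 15, 2, 20 and 23, against 11.9 RPKM in XX line 8 and 61.7 RPKM in XY line 12 of S. The ranges did not overlap, and the difference was -4.73 ± 0.45 (SE, adjusted p = 0.00132). The fibroblast share was 0.0476% to 0.720% in 2i and 0.629% to 2.21% in S, and the share times the MEF mean was 1.24% and 0.837% of the Egr1 level in S lines 8 and 12. In the same lines this product was larger for Fosl1 (16.7% and 18.9%) and Jun (5.97% and 16.5%). It was 2.61% and 3.67% for Junb, 2.66% and 2.05% for Fos and 0.256% and 0.524% for Ier2.

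Fos had 4.24, 1.03, 0.669 and 0.353 RPKM in the same 2i lines, against 5.15 and 23.4 RPKM in S, a difference of -2.47 ± 0.67 (SE, adjusted p = 0.0415). Junb differed by -1.64 ± 0.34 (adjusted p = 0.0174), Fosl1 by -1.21 ± 0.22 (adjusted p = 0.0109), Jun by -0.89 ± 0.18 (adjusted p = 0.0148) and Ier2 by -0.77 ± 0.17 (adjusted p = 0.0226). Fosb did not exceed 0.171 RPKM in 2i and was at 0.419 and 0.876 RPKM in S (-0.59, adjusted p = 0.115). Without S line 12 only Egr1 was called, and Fos differed by -0.92. The call of Fos was also lost without 2i line 2, 20 or 23 (adjusted p = 0.0756, 0.103 and 0.0884) and without the filter (0.107), that of Junb without the filter (0.0541), and that of Ier2 without S line 8 or 2i line 20 (0.0873 and 0.0635). Ier3 was no lower in 2i, with 4.28 to 21.5 RPKM against 4.38 and 6.26 RPKM in S.

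The line moved from 2i to serum stood above its parent for most members. In 2i-S line 15 Egr1 was at 11.1 RPKM, Fos at 17.7, Fosb at 3.05, Jun at 8.41, Junb at 24.9 and Ier2 at 134 RPKM. Its parent, line 15 in 2i, had 0.0859 RPKM of Egr1, 4.24 of Fos, a listed 0 of Fosb, 2.43 of Jun, 5.98 of Junb and 44.8 of Ier2. Of 10 members, 4 were called higher in 2i-S than in the 2i group, where 0.811% of all genes were: Egr1 by 3.83 ± 0.62 (SE), Fosb by 2.00, Jun by 1.59 and Ier2 by 1.31, with adjusted p from 0.0406 to 0.0489. The 1 library of 2i-S was assumed to vary like the other groups, and it was passaged longer than the 2i lines, so passage and medium cannot be told apart. Without any one 2i line at most 1 of these calls was left, and without the filter 0; subtraction ended the call of Ier2 (adjusted p = 0.0559). After the fibroblast share, 1.58% in 2i-S, was subtracted, 50 of all genes were higher and 41 lower, against 109 and 55. Compared with S lines, 2i-S gave 0 calls of 10 members with limma, with 0.00744% of all genes called in either direction, and 2 members, Fosb (1.41) and Jun (0.70), at an unadjusted p under 0.05.

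The MEF level itself differed from that of 2i lines for every member, 9 higher and Ier2 lower, where 71.1% of all genes were called in either direction. Egr2 and Egr3 passed the filter of this cross only through MEF and 2i MEF, and Fosb only through these and 2i-S, so their difference was set by the filter and the count is a description. The differences ran from 1.03 for Egr3, listed at 0 in all 2i lines, and 1.06 for Fosb to 4.41 for Fosl1 and 4.51 for Egr1, while Ier2 was at 35.9 and 34.9 RPKM in MEF against 44.8 to 84.2 RPKM in 2i (-0.89 ± 0.17 SE, adjusted p = 0.00202). The 2i MEF library gave 0 calls of 10 against MEF with limma, where 0.454% of all genes were called, 17 higher and 44 lower, against 35 and 39 after quantile normalization. At an unadjusted p under 0.05 there was 1, Fosl1, at 7.18 RPKM in 2i MEF against 21.8 and 25.3 RPKM in MEF (-1.58, adjusted p = 0.0916).

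The 2i minus serum difference was larger in the B6 than in the MSM cross for 7 of 9 members, where 9.47% of all genes were called lower; this split was 281 higher and 1263 lower, 505 and 693 after quantile normalization, and 362 and 418 after subtraction. Egr2 and Fosb reached 1 RPKM in this fit only in B6 serum, and Fosl1 only there and in S line 12, so the filter set part of this count, which is given as a description. In the direct test, B6 minus MSM, Fosb differed by -4.83 ± 0.39 (SE, adjusted p = 1.87e-05), Fos by -3.60 ± 0.87 (adjusted p = 0.0189) and Jun by -2.72 ± 0.24 (adjusted p = 2.61e-05). Ier3 differed by -2.69, Egr2 by -1.98, Junb by -1.88 and Fosl1 by -1.06. The level behind this was that of serum: Fosb averaged 52.2 RPKM in B6 serum and 0.648 RPKM in S of the MSM cross, and Fos 173 and 14.3 RPKM. Egr1 (-0.92, adjusted p = 0.309) and Ier2 (-0.18, adjusted p = 0.649) were not called, with 57.3 RPKM of Egr1 in B6 serum and 36.8 RPKM in S. Without S line 12, Egr1 differed by -2.12 and was called (adjusted p = 0.0161), and over all single libraries left out it ran from -2.12 to 0.29. Subtraction ended the call of Fosl1 (-0.32), as did quantile normalization (adjusted p = 0.128) and a pseudocount of 0.1 RPKM (adjusted p = 0.174), which also ended that of Fos (adjusted p = 0.0622). Without S line 8, 3 of 9 members were called, with Fos at -2.05. Cross, fibroblast RNA and whatever else differed between the serum cultures of both crosses cannot be told apart here.

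**Figure D4:**
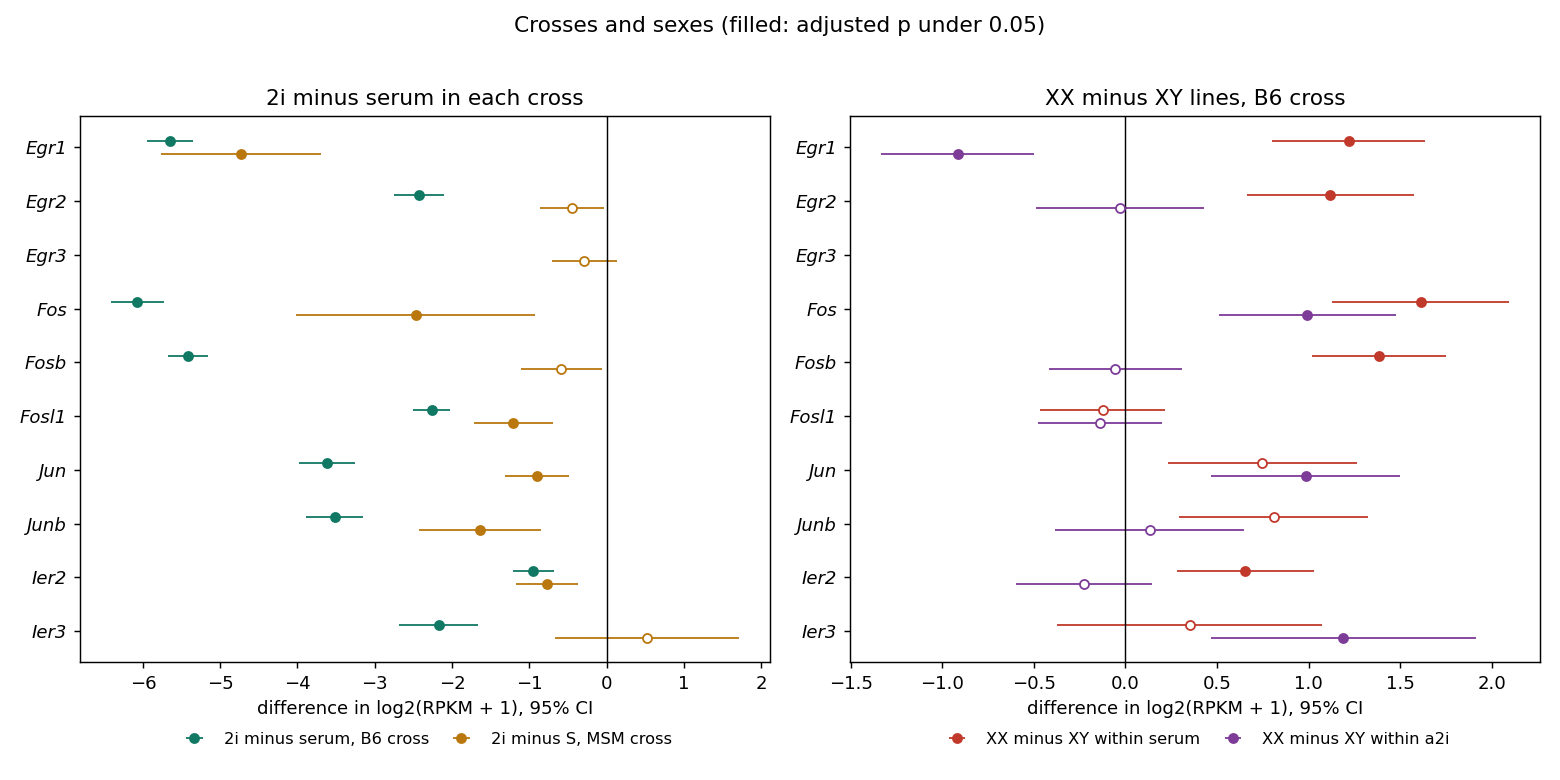
Differences in log2(RPKM + 1) with 95% intervals for 2i minus serum in the B6 cross and 2i minus S in the MSM cross (left) and for XX minus XY lines within serum and a2i of the B6 cross (right); filled points have an adjusted p under 0.05. The crosses lie far apart for Fosb, Jun and Ier3, their intervals overlap for Egr1 and Ier2, and Egr1 has opposite signs in serum and a2i.

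Ordered by level over all 9 groups, Egr1, Fos, Fosb and Junb were highest in B6 serum. For Egr1 the B6 serum range overlapped that of S and held the 2i MEF library. For Junb it overlapped the MEFs, and for Fos and Fosb it lay above every other group. Fosl1, Jun and Ier3 were highest in MEF, though the serum and MEF ranges of Jun overlapped. Egr2 and Egr3 were highest in the single 2i MEF library, where Egr2 lay within the B6 serum range, and Ier2 in 2i-S, within the range of B6 serum. At the low end, neighbours among a2i, t2i and both groups of 2i overlapped; Egr1 in a2i stood clear of them, at 1.40 RPKM with all 4 lines above the 2i and t2i lines of both crosses.

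Likeness of pattern was measured as Pearson r of log2(RPKM + 1) over the 26 libraries, which share groups and the fibroblast share, among 13971 genes, as a description. Among pairs of members, r was 0.95 for Junb and Egr1, for Junb and Jun, for Egr2 and Egr3 and for Jun and Egr2. Outside the members, Fos was most like Iglon5 (0.95), Rgs16 (0.94) and Mmp3 (0.92), and Fosb most like Serpinb2 (0.93), Mmp10 (0.92) and Iglon5 (0.90). Egr1 was most like Mgp (0.94), Isg15 (0.92) and Iglon5 (0.92), and Junb like Rgs16 (0.95), Ifi44 (0.94) and Tm4sf1 (0.94). Egr2 was most like 1810011O10Rik (0.97), Ifi44 (0.96) and Cpq (0.95), Egr3 like Synpo (0.95), Ch25h (0.94) and Ugt1a7c (0.94), and Jun like Csf1 (0.97), Igfbp7 (0.97) and Wnt9a (0.96). Fosl1 was most like Dkk2, Sdpr and Il1rl1 (each 0.98), Ier3 like Adm (0.95), Anxa2 (0.92) and Ltbp3 (0.91), and Ier2 stood apart with Hnrnpab (0.89), Tmem79 (0.88) and Frat2 (0.88).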

How the data were processed

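RNA was measured in 26 libraries of 2 crosses (groups from the labels), and the deposited table, made by the authors, holds RPKM per gene; the submitters' processing notes name cutadapt 1.9.1, TopHat2 2.1.0, Bowtie2 2.2.5, Cufflinks 2.2.1 and mm10, in no stated order or role. Counts and depth are unknown, and no source used here says whether counting used strand. Members and gene lists were chosen with earlier results of these data known. Named genes were the 10 members, the 3 largest called changes of each list in 2i minus serum, and the 3 genes most like each member. One gene that this rule names is not reported here.

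Values were analysed as log2(RPKM + 1) with limma 3.58.1 (R 4.3.3; lmFit, contrasts.fit, eBayes with trend; Benjamini-Hochberg over all genes that reached 1 RPKM in 2 or more libraries), after the procedure was tested on simulated data. The B6 fit had 8 means (medium by sex), the MSM fit 5 culture means and a sex term among ESCs, and the cross fit 14 libraries with a sex term per cross. Alternatives were a pseudocount of 0.1 RPKM, no filter, quantile normalization, subtraction of the fibroblast share times the MEF mean, fits of 2 media alone and leaving out single libraries. XX minus XY within serum and within a2i, and 2i-S minus S, were added after seeing the data. Tables used pandas 2.3.3 and figures matplotlib 3.10.9 (Python 3.11.15).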

Additional observations from a re-analysis of the deposited data

Results flagged for a closer look

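Of 51 groups of 4 libraries checked for a library far from the others, 4 were marked, and chance marks about 1 in 20 groups. Egr2 in t2i line t2 was at 0.0259 RPKM with the other 3 t2i lines listed at 0. Fosb in 2i line c6 of the B6 cross was at 0.207 RPKM with the others at 0.0776 to 0.0795 RPKM. Egr3 in serum XX line 46 was at 1.86 RPKM with the others at 0.556 to 0.721 RPKM. The fibroblast share of 2i line 20 in the MSM cross was 0.720% of the MEF level, with the others at 0.0476% to 0.0740%.

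Differences that themselves differed between groups, by their own test in limma, were of 2 kinds. Between the sexes, 2i minus serum in XX minus XY lines was -2.40 for Fos (adjusted p = 0.00111), -1.46 for Fosb (adjusted p = 0.00304) and -1.27 for Egr1 (adjusted p = 0.0139), and a2i minus 2i was 1.78 for Fos (adjusted p = 0.0106). The Fosb and Egr1 values largely repeat their XX minus XY differences within serum, since both genes were near the floor in 2i. Between the crosses, 2i minus serum in B6 minus MSM was -4.83 for Fosb (adjusted p = 1.87e-05), -3.60 for Fos (adjusted p = 0.0189), -2.72 for Jun (adjusted p = 2.61e-05), -2.69 for Ier3 (adjusted p = 0.0116), -1.98 for Egr2 (adjusted p = 0.00276), -1.88 for Junb (adjusted p = 0.0141) and -1.06 for Fosl1 (adjusted p = 0.0141).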

How the results depend on the processing

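The 9 members lower in 2i, t2i and a2i than in B6 serum kept direction and call under all 351 alternatives run for these values, and t2i minus 2i stayed at 0 calls under all 13. Egr2, Fosb and Fosl1 passed the filter only through serum, so their part of the 351 is a description. Of 1900 alternatives for single members, 1767 kept direction and call, 113 lost the call, 19 gained one and 1 reversed: Fosb in XX minus XY of the B6 cross, at -0.13 with a pseudocount of 0.1 RPKM (adjusted p = 0.668; main 0.26). Counts of called members that moved by over 1.5 times were as follows; the cause was not tested. XX minus XY within serum (5) went to 2 with a pseudocount of 0.1 RPKM. In a2i minus t2i (2), 1 was called without the filter, 1 after quantile normalization, 1 after subtraction and 0 in the fit of both media alone, in which 6 members were tested. In 2i-S minus 2i (4), 0 were called without the filter. Leaving out 1 library at a time gave 1 to 4 calls in a2i minus 2i, 1 to 3 in a2i minus t2i, 3 to 7 in XX minus XY, 3 to 4 within serum, 1 to 4 within a2i, 1 to 6 in 2i minus S, 0 to 1 in 2i-S minus 2i and 3 to 8 in the difference between crosses. The fibroblast share of B6 serum was 8.25% with 2i MEF as the MEF level, against 12.4%. Without the filter, Egr3 was at -0.92 in 2i minus serum (adjusted p = 0.000128). Low levels rest on few reads of unknown number. No paired analysis was possible because no groups compared share more than 1 replicate name; line 15, in 2i, 2i-S and 2i MEF, is 1 pair.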
